A study of Mus musculus with 10 samples.

Results

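The Gimap genes encode GTPases of the immunity-associated protein family, and 8 of them lie side by side on mouse chromosome 6. The 8 members, Gimap1, Gimap3, Gimap4, Gimap5, Gimap6, Gimap7, Gimap8 and Gimap9, were taken by gene name from the 22548 genes of the count table. The cluster was chosen by the MM against No MM values of Gimap3, which stood among the genes higher in MM, so the MM against No MM values of the cluster are given as a description and not as a test. All 8 were among the 16186 genes that passed the filter on low counts. Osteocytes, the cells embedded in bone matrix, were isolated from femurs of 5 male C57BL/6 mice, 8 weeks of age by the labels, that carried Vk12598 myeloma cells after intrafemoral injection (MM), and of 5 male C57BL/6 mice of the same labelled age without myeloma cells (No MM). Vk12598 is a transplantable line from a mouse myeloma model and was the only tumor line behind these libraries. By the study's text, control mice received the same volume of PBS, and myeloma was assessed 6 weeks after injection. Whether the labelled age is that at injection or at isolation is not given in the sources used here. The cells came from repeated collagenase and EDTA digestion of bone pieces after the marrow had been removed, with no sorting step described, and the femur is also the bone that was injected. Each mouse gave 1 RNA-seq library, numbered 1 to 5 for No MM and 6 to 10 for MM, so p-values measure the spread between mice.

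GIMAP proteins sit on membranes of organelles such as the lysosome, the endoplasmic reticulum and mitochondria, bind GTP and assemble on the membrane. The family is best known for the survival and homeostasis of lymphocytes. Loss of Gimap5 in rats and mice depletes T cells, and loss of Gimap1 depletes mature T and B cells. Some members are also known from endothelial cells.

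Between 31099174 and 39466332 reads were counted per library, and an exact, two-sided permutation test of library size found no difference between MM and No MM (p = 0.325). Read counts are given as CPM, counts relative to the library total after TMM scaling in edgeR, and 3 counts equalled 0.0709 to 0.114 CPM. The libraries No MM 3 and No MM 4 stood apart from the rest, with 26.8% and 29.3% of their counts on immunoglobulin genes, the products of B cells and plasma cells, against 0.644% to 3.98% in the other 8. The fold changes of the members, and the list and neighbor medians, are therefore also given without them. The osteocyte genes Sost, encoding sclerostin, and Dmp1, a matrix protein, were counted in every library, with at least 2890 and 3077 reads. The T cell receptor subunit Cd3e was also counted in every library, with 76 to 306 reads. No edgeR-adjusted p-value was under 0.05 among all genes tested, where 617 genes were higher and 1664 lower in MM at an unadjusted p under 0.05, and DESeq2 called 31 higher and 176 lower after adjustment.

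The cluster spans 119 kb, from 48647234 to 48766519 on chromosome 6, in the order Gimap8, Gimap9, Gimap4, Gimap6, Gimap7, Gimap1, Gimap5 and Gimap3. Gimap6 and Gimap3 are transcribed from the minus strand and the other 6 from the plus strand. Coordinates are those of the table, and those of every member but Gimap1 and Gimap3 equal the start and end in GENCODE M21 (GRCm38). RefSeq windows from 250 bases before to 50 bases after the start site (GRCm38.p6) were found for all 8 members, with 9 windows in all because Gimap8 has a pair of start sites. The windows below belong to the members on which the values turned. Gimap3 and Gimap8 had the largest differences between the groups, Gimap9 alone was lower in MM, and Gimap4 and Gimap7 followed the T cell genes. Each is written from 5′ to 3′ on the strand of its gene, and capitals mark matches to 1 of 6 motifs on either strand.

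Gimap3: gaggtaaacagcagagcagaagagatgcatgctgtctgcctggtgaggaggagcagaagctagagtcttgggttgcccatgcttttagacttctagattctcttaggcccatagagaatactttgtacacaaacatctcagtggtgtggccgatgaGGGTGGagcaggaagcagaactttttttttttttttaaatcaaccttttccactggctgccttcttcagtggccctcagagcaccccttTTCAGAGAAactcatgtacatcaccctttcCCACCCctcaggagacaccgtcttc

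Gimap8: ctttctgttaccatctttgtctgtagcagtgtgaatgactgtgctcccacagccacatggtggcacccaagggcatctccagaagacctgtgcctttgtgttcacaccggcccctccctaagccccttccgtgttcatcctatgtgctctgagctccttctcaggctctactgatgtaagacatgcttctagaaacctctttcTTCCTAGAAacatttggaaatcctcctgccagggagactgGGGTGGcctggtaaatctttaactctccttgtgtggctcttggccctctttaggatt

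Gimap9: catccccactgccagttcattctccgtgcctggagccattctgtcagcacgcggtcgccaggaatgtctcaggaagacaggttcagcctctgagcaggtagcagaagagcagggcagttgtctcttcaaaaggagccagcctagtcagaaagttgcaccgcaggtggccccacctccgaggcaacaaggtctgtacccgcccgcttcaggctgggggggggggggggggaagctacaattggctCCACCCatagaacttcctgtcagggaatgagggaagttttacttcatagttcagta

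Gimap4: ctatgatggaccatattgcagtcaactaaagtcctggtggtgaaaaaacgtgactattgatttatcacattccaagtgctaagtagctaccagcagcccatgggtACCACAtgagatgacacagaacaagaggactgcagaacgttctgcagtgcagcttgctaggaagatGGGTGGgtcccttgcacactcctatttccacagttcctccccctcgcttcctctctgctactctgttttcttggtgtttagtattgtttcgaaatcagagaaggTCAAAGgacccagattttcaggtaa

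Gimap7: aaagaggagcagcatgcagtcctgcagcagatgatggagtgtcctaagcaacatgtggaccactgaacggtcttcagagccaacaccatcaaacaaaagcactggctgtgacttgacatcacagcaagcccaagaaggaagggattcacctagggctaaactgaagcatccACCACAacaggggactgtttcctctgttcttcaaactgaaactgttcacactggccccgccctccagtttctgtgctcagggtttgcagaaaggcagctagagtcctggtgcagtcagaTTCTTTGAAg

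The Gimap3 window is chr6:48770802-48771101 on the minus strand, and the Gimap8 window, that of its downstream start site, is chr6:48647111-48647410 on the plus strand. That Gimap3 window lies upstream of the model over which Gimap3 was counted, whose 5′ end is at 48766519. It holds the 5′ end of Gimap3 in GENCODE M21, at 48770851. The Gimap9, Gimap4 and Gimap7 windows are chr6:48675885-48676184, chr6:48684328-48684627 and chr6:48718371-48718670, all on the plus strand. The GAS motif of STAT factors (TTCNNNGAA) was matched in 4 of the 9 windows, those of Gimap8, Gimap6, Gimap7 and Gimap3, and in 8.3% of all 32851 RefSeq windows of that length. In Gimap3 the GAS match began 5 bases before the start site, and in Gimap8 it began 47 bases before. The RUNX motif (TGTGGT) was matched in Gimap4, Gimap7 and Gimap1, and in 16.8% of all windows. The TCF/LEF motif (CTTTGA) was matched in Gimap4 and Gimap7, and in 16.0% of all windows, and in Gimap7 this match lies inside the GAS match. The KLF motif (CCACCC) was matched in Gimap8, Gimap9, Gimap4, Gimap5 and Gimap3, and in 31.5% of all windows. Neither the ETS motif (CCGGAA), found in 14.9% of all windows, nor the IRF motif (TTCNNTTTC), found in 8.6%, was matched in any of the 9. A match is a stretch of letters and says nothing of binding in these cells.

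Divided by the length of each gene model, the members differed in level, from 4.01 to 33.0 CPM per kb. Over the 10 libraries, Gimap4 averaged 33.0 ± 9.30 CPM per kb (SD, n = 10) and Gimap6 28.5 ± 5.15. These highest members did not separate, since Gimap4 lay above Gimap6 in 6 of 10 libraries. Together they made up 48.4% to 62.8% of the summed CPM per kb of the cluster. Gimap3 followed at 18.6 ± 8.48 and Gimap9 at 12.0 ± 3.48 CPM per kb, and Gimap1 was at 9.66 ± 2.43 in No MM and 10.4 ± 1.79 in MM (n = 5 each). Gimap3 was above Gimap9 in 8 libraries, and the exceptions were No MM 3 and No MM 4. Gimap8 (6.00 ± 2.23), Gimap7 (4.48 ± 1.97) and Gimap5 (4.01 ± 0.831) were the lowest, and Gimap7 was above Gimap5 in only 5 of 10 libraries. The table counts Gimap3 over 906 bases, which is the length of its coding sequence with the stop codon, whereas the models of the other members also hold noncoding exon sequence. The level of Gimap3 per kb therefore rests on a different kind of model.

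Of the members, 7 had a positive fitted log2 fold change, MM over No MM, and 1 had a negative one. Across all genes tested, 47.3% had a positive value. The median log2 fold change of the 8 members was 0.43, and that of all genes tested was -0.03. Every MM library lay above every No MM library for 3 members, Gimap3, Gimap5 and Gimap8, as it did for 0.729% of all genes tested. At an unadjusted p under 0.05, 3 members, Gimap3, Gimap7 and Gimap8, were higher (3.81% of all genes tested) and 0 were lower (10.3%). None was called by edgeR after adjustment (0% of all genes tested), whereas DESeq2 called 1, Gimap3 (0.176% called higher of the 17638 genes it gave an adjusted p). The contrast that chose the cluster gave these counts, so nothing is read from them. With No MM 3 and No MM 4 left out, all 8 members had a positive log2 fold change with a median of 0.27, against -0.02 for all genes tested. In that fit, with the libraries scaled anew, 2 members, Gimap3 and Gimap8, had groups that did not overlap and an unadjusted p under 0.05. At that p, 977 of the 16600 genes of that fit were called in either direction. The share of all genes whose groups did not overlap was not counted there. Nothing is read from these counts either. Because the samples were bulk preparations, more cells of a type and more RNA per cell cannot be told apart in any of these values.

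**Figure D1:**
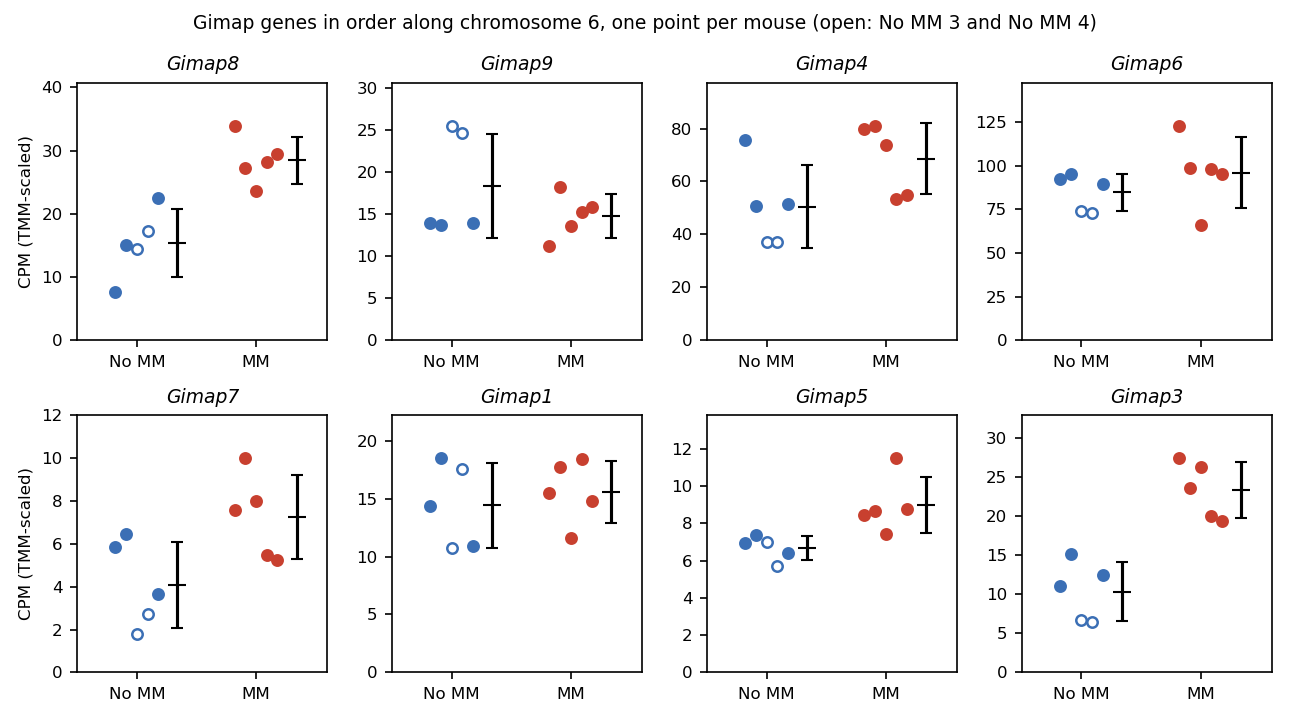
CPM of each Gimap gene in each mouse (points; open points are No MM 3 and No MM 4) in the No MM and MM groups, with mean and SD (bars, n = 5), in order along the chromosome. Gimap8, Gimap5 and Gimap3 show no overlap between the groups, and the open points are the highest for Gimap9 and the lowest of the No MM group for Gimap4, Gimap6, Gimap7 and Gimap3.

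Gimap3, whose protein is membrane-anchored and has been tied to the segregation of mitochondrial DNA in blood cells, had the largest difference. In No MM 1 to 5 its levels were 11.0, 15.2, 6.66, 6.39 and 12.4 CPM. In MM 6 to 10 they were 27.4, 23.6, 26.3, 20.0 and 19.4 CPM. The lowest MM library was thus above the highest No MM library, and the 2 lowest values were those of No MM 3 and No MM 4. The means were 10.4 ± 3.81 CPM in No MM and 23.3 ± 3.60 CPM in MM (SD, n = 5 each), a fitted 2.25-fold difference (log2 fold change 1.17, SE 0.26). Without No MM 3 and No MM 4 the log2 fold change was 0.84 (SE 0.19), and the groups still did not overlap. Gimap3 made up 7.84% to 15.3% of the summed CPM per kb of the cluster in No MM and 17.8% to 23.2% in MM. Gimap3 and Gimap5 are near copies in part of their sequence. Of 831 windows of 76 bases (the read length) in the Gimap3 coding sequence, 80 were identical to a stretch of Gimap5, so the authors' counting could split or drop reads there. The ratio of Gimap3 to Gimap5 in CPM per kb was 2.05 to 4.45 in No MM and 3.76 to 7.63 in MM.

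Gimap5, which keeps resting T cells alive and sits on lysosomal membranes, was among the lowest members and the least variable between No MM mice. Its levels in No MM 1 to 5 were 6.93, 7.38, 7.01, 5.70 and 6.39 CPM. In MM 6 to 10 they were 8.46, 8.68, 7.42, 11.5 and 8.79 CPM. The groups did not overlap, but the highest No MM and the lowest MM library were 7.38 and 7.42 CPM. The means were 6.68 ± 0.653 and 8.96 ± 1.50 CPM, with a log2 fold change of 0.42 (SE 0.20) over all 10 libraries and 0.36 (SE 0.21) without No MM 3 and No MM 4. The separation of Gimap5 did not hold when the other libraries were scaled anew without those 2.

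Gimap8, the largest protein of the family, with repeated GTPase domains, was the other member with a large difference. Its levels in No MM 1 to 5 were 7.66, 15.1, 14.5, 17.3 and 22.5 CPM. In MM 6 to 10 they were 33.9, 27.2, 23.6, 28.2 and 29.4 CPM. The groups did not overlap, and No MM 3 and No MM 4 lay within the range of the other No MM libraries. The means were 15.4 ± 5.36 and 28.4 ± 3.76 CPM, and the log2 fold change was 0.88 (SE 0.25), or 0.90 (SE 0.31) without those 2 libraries. Gimap8 was thus the only member whose log2 fold change did not become smaller or change sign when they were left out.

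Gimap7, which pairs with other GIMAP proteins and speeds up their GTP hydrolysis, and Gimap4, which affects the death of T cells after activation, were both at their lowest in the 2 immunoglobulin-rich libraries. Gimap7 levels in No MM 1 to 5 were 5.87, 6.45, 1.78, 2.72 and 3.68 CPM. In MM 6 to 10 they were 7.58, 10, 7.99, 5.49 and 5.26 CPM. Here the groups overlapped, since No MM 1 and No MM 2 reached MM 9 and MM 10. The log2 fold change of Gimap7 was 0.82 (SE 0.37) over all libraries and 0.42 (SE 0.30) without No MM 3 and No MM 4. Gimap4, one of the most abundant members, had 75.5, 50.7, 37.1, 37.2 and 51.5 CPM in No MM 1 to 5. It had 79.7, 81.0, 73.9, 53.5 and 54.8 CPM in MM 6 to 10. The groups overlapped, since No MM 1 lay above MM 8, MM 9 and MM 10. The log2 fold change of Gimap4 was 0.45 (SE 0.22), and 0.19 (SE 0.22) without No MM 3 and No MM 4.

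Gimap6, which binds GABARAP proteins of the autophagy machinery, and Gimap1, required for mature lymphocytes, had small fold changes. Gimap6 had 92.7, 95.3, 74.1, 73.0 and 89.8 CPM in No MM 1 to 5 and 123, 98.9, 66.0, 98.0 and 95.1 CPM in MM 6 to 10. Its lowest and its highest value were both MM libraries. Its log2 fold change was 0.18 (SE 0.17), and 0.04 (SE 0.19) without No MM 3 and No MM 4. Gimap1 had 14.4, 18.5, 10.7, 17.6 and 10.9 CPM in No MM 1 to 5 and 15.5, 17.7, 11.6, 18.4 and 14.8 CPM in MM 6 to 10. The groups covered nearly the same range. The log2 fold change of Gimap1 was 0.11 (SE 0.22), and 0.08 (SE 0.23) without those libraries. Gimap1 overlaps the antisense gene Gimap1os over 1107 exonic bases in GENCODE M21, and whether the counting used strand is not given in the sources used here.

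Gimap9 was the only member with a lower mean in MM. Its levels in No MM 1 to 5 were 13.9, 13.7, 25.5, 24.6 and 13.9 CPM. In MM 6 to 10 they were 11.2, 18.2, 13.6, 15.3 and 15.8 CPM. Only No MM 3 and No MM 4 were above the MM range. The log2 fold change was -0.30 (SE 0.24) with them and 0.08 (SE 0.19) without them, so the direction rested on these libraries.

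The 2 immunoglobulin-rich libraries lay above, below or among the other No MM libraries, depending on the member. Their mean was 1.81 times that of No MM 1, No MM 2 and No MM 5 for Gimap9, with no overlap. It was lower, again with no overlap, for Gimap7 (0.422 times), Gimap3 (0.505 times), Gimap4 (0.627 times) and Gimap6 (0.794 times). Gimap8, Gimap1 and Gimap5 overlapped, with ratios of 1.06, 0.969 and 0.921. Gimap9 thereby took 21.5% and 19.7% of the summed CPM per kb of the cluster in No MM 3 and No MM 4, and 5.35% to 9.56% in MM. The ratio of Gimap3 to Gimap9 in CPM per kb was 0.399 and 0.397 in those libraries, 1.21 to 1.70 in the other No MM libraries and 1.87 to 3.74 in MM. The part of B lineage RNA in these values was not tested. The share of all genes that separate these 2 libraries from the other No MM libraries was not counted. No grouping of the members is therefore read from the overlaps.

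Cell type genes were then examined, because lymphocytes and other marrow cells could carry the Gimap transcripts in a bone preparation. Of 20 T cell genes, 19 were higher and 1 was lower in MM by fitted value, and none passed edgeR after adjustment or DESeq2. At an unadjusted p under 0.05, Cd28, a costimulatory receptor, was lower (log2 fold change -1.75, adjusted p = 0.323), and at -0.09 without No MM 3 and No MM 4. The summed T cell list was 140 to 269 CPM in No MM and 189 to 301 CPM in MM. Its median log2 fold change was 0.39, and 0.09 without the 2 immunoglobulin-rich libraries. Of 12 genes of naive T cell survival and homing, all were higher by fitted value with a median log2 fold change of 0.41, but 5 of the 12 were negative without No MM 3 and No MM 4, with a median of 0.06. Over all 10 libraries, 0 passed after adjustment in edgeR or DESeq2 and 2 had an unadjusted p under 0.05, Il7r and Klf2. Il7r, the receptor for interleukin 7, had 10.5 ± 6.19 CPM in No MM and 22.3 ± 5.35 CPM in MM, with no overlap between the groups (log2 fold change 1.08, adjusted p = 0.315), and a log2 fold change of 0.57 without those libraries.

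The other cell lists moved by different amounts. The median log2 fold change was 0.77 for 12 NK and cytotoxic cell genes, 0.70 for 11 dendritic cell genes and 0.60 for 16 B cell genes, and it was 0.29, 0.25 and -0.04 without No MM 3 and No MM 4. It was 0.44 for 10 hematopoietic stem cell genes, 0.31 for 10 monocyte and macrophage genes, 0.19 for 10 neutrophil genes, -0.13 for 14 endothelial genes and -0.31 for 8 erythroid genes. Without the same 2 libraries these medians were 0.09, 0.05, -0.34, -0.25 and -1.02. For 10 plasma cell genes the median was -2.04, and -0.41 without those libraries, in which the summed list was 9583 and 9584 CPM against 631 to 1321 CPM elsewhere. The 11 osteocyte genes had a median of 0.04, and -0.43 without them. Their sum was 615 to 3211 CPM in No MM and 829 to 2758 CPM in MM. The neutrophil list summed to more, 7291 to 33442 CPM in No MM and 10371 to 31365 CPM in MM. For the erythroid list the sums were 946 to 61110 CPM in No MM and 7771 to 27084 CPM in MM. Over these 12 lists, edgeR called 0 of 144 entries after adjustment, DESeq2 called 1 higher and 4 lower, and 14 were higher and 10 lower at an unadjusted p under 0.05 (3.81% and 10.3% of all genes tested). These 24 became 7 without No MM 3 and No MM 4, 7 with the T cell covariate and 14 without No MM 3 alone. Over all genes tested, 2281 at that p became 977, 1512 and 1232 in the same fits. The T cell list that gave the covariate is itself among the 12 lists. One gene, of the B cell list, was at 0 counts in at least 1 library. The part of any of these cells in the Gimap values was not tested, but the Gimap fit was repeated with the mean T cell list as a covariate. In that fit the log2 fold change was 0.37 (SE 0.24) for Gimap7 and 0.15 (SE 0.15) for Gimap4. It was 0.92 (SE 0.24) for Gimap3, 1.06 (SE 0.29) for Gimap8 and 0.47 (SE 0.22) for Gimap5. Gimap6 (0.12), Gimap1 (0.05) and Gimap9 (-0.06) were near 0, and the median of the 8 members was 0.26.

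**Figure D2:**
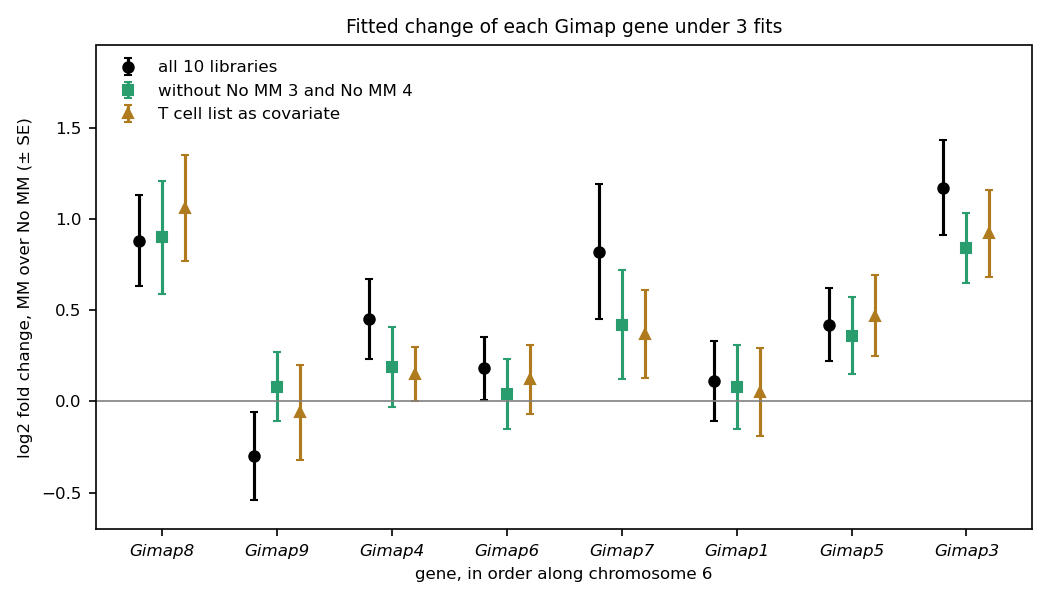
Fitted log2 fold change of each Gimap gene, MM over No MM, with its SE, for all 10 libraries, without No MM 3 and No MM 4, and with the T cell list as a covariate. Gimap3 and Gimap8 stay above 0.8 in all 3 fits, Gimap7 moves from 0.82 to 0.42 and 0.37, and Gimap9 changes sign without the 2 libraries.

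The members followed different cell lists across libraries. These correlations describe 104 pairs of a member and a list (the 12 cell lists and the partner list) over the 8 libraries other than No MM 3 and No MM 4, all of which share the scaling of each library, and the pairs were picked after their values were seen. Gimap4 followed the T cell list (r = 0.90), as did Gimap7 (r = 0.88), which also followed the NK list (r = 0.92). Both ran opposite to the naive T cell list over the same libraries (r = -0.80 for Gimap4 and -0.59 for Gimap7), and to the B cell list (r = -0.86 and -0.60). Over all 10 libraries the sign was the other way. There r was 0.65 and 0.76 with the naive T cell list, and 0.52 and 0.68 with the B cell list. These directions thus rested on leaving out No MM 3 and No MM 4. For Gimap3, r was 0.79 with the dendritic cell list, 0.71 with the NK list and 0.37 with the T cell list. Gimap6 followed the endothelial list (r = 0.80, rho = 0.55 by ranks), and Gimap1 the hematopoietic stem cell list (r = 0.92, rho = 0.95). Over all 10 libraries, the r of Gimap6 was 0.75 with the endothelial list and 0.77 with the osteocyte list. That of Gimap1 with the stem cell list was 0.60 over all 10. Gimap8 did not follow the T cell list (r = -0.18). Gimap9 did not follow the plasma cell list over these 8 libraries (r = -0.02), although both were highest in No MM 3 and No MM 4. Among the members themselves, the median r over 28 pairs was 0.20, and 0.04 for deviations from the group means over all 10 libraries. Within the 8 libraries the closest pairs included Gimap8 with Gimap3 (r = 0.77) and Gimap4 with Gimap7 (r = 0.75). Over all 10 libraries the r of these pairs was 0.65 and 0.89. For deviations from the group means over the same 10 libraries these were -0.04 and 0.83. Over the 10 libraries, the r of Gimap8 with Gimap3 thus rested on the difference between the groups. Deviations over the 8 libraries alone were not computed.

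**Figure D3:**
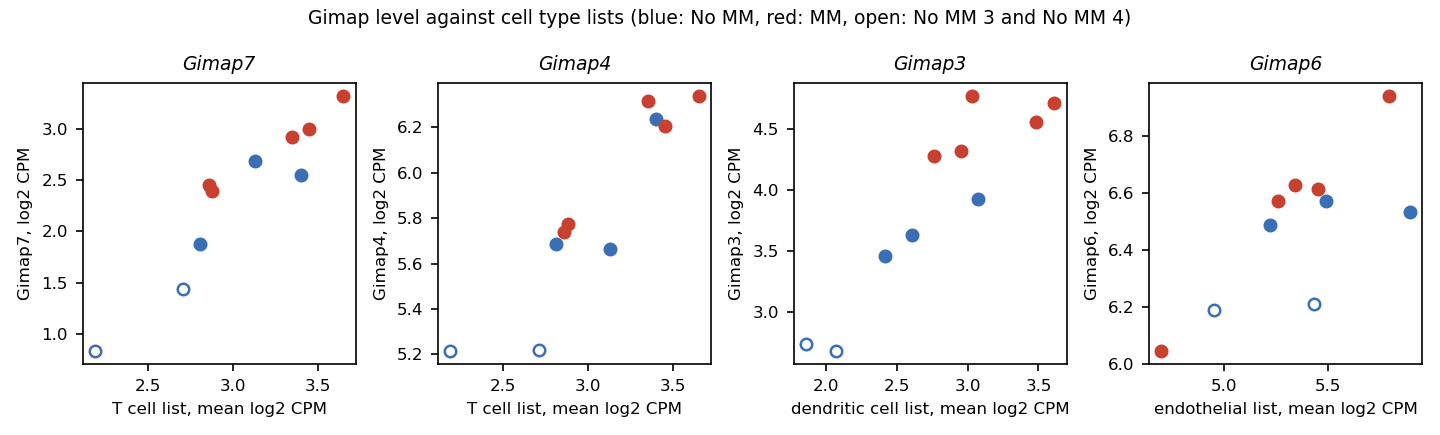
Log2 CPM of 4 Gimap genes against the mean log2 CPM of a cell type list in each of the 10 libraries (blue, No MM; red, MM; open, No MM 3 and No MM 4). Gimap7 and Gimap4 rise with the T cell list across both groups, Gimap6 rises with the endothelial list, and for Gimap3 the MM points lie above the No MM points.

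Genes outside the cluster were ranked by the correlation of their log2 CPM with the mean of the 8 standardized Gimap levels over all 10 libraries. The highest 10 were Trpc6 (r = 0.932), Ighv1-66 (0.903), Ighv9-1 (0.899), Igha (0.897), Igkv9-120 (0.897), Txk (0.896), Lta (0.894), Kif9 (0.893), Kcna4 (0.892) and Klra8 (0.890). Over the 8 libraries without No MM 3 and No MM 4, the r of these genes lay between 0.77 and 0.91. For deviations from the group means over all 10 libraries it lay between 0.66 and 0.86. All of these genes were higher in MM by fitted value (log2 fold change 0.55 to 3.27). Kcna4, Ighv9-1, Ighv1-66 and Lta averaged only 0.170 to 0.368 CPM in No MM, not far above the level of 3 counts. Trpc6, a cation channel, was at 10.1 CPM in No MM and 25.6 CPM in MM on average. Txk is a T cell kinase, Lta encodes lymphotoxin alpha, Klra8 is an NK cell receptor and Igha is the constant gene of IgA. Igha averaged 431 CPM in No MM and 1397 CPM in MM, whereas the share of all immunoglobulin genes together was highest in No MM 3 and No MM 4.

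Genes listed as partners of Gimap proteins were mostly lower by fitted value. The 14 genes are of the BCL2 family, GSK3 and the GABARAP and LC3 family of autophagy, with Sqstm1 added. Of these, 2 had a positive and 12 a negative value, where 47.3% of all genes tested had a positive one. The median log2 fold change was -0.35 (-0.45 without No MM 3 and No MM 4), and none passed after adjustment in edgeR or DESeq2. At an unadjusted p under 0.05, 3 were lower, as were 10.3% of all genes tested. They were the death inhibitor Bcl2 (-1.72), the death effector Bax (-1.06) and the autophagy receptor Sqstm1 (-0.47), with edgeR-adjusted p = 0.346, 0.315 and 0.353. Bcl2 was 120 ± 130 CPM in No MM and 36.5 ± 4.38 CPM in MM (n = 5 each), and its log2 fold change was 0.51 without No MM 3 and No MM 4. Bax was at -0.11 and Sqstm1 at -0.48 without them. Gabarap, the most abundant of the 14, was 341 ± 106 CPM in No MM and 260 ± 23.0 CPM in MM (adjusted p = 0.426). The death effector Bcl2l11 had the largest positive value, 21.1 ± 5.30 CPM in No MM and 28.0 ± 2.30 CPM in MM (adjusted p = 0.361). Over the 8 libraries, Gimap8 ran opposite to the mean of the partner list (r = -0.94, and rho = -0.64 by ranks). No MM 1 had the highest partner mean (6.61 log2 CPM) and the lowest Gimap8 level (7.66 CPM) of these libraries.

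The genes around the cluster were taken by position alone. Of 24 other genes of the table within 500 kb, 17 passed the filter, 3 with a positive and 14 with a negative log2 fold change, and the median was -0.47. Without No MM 3 and No MM 4, 6 were positive and 11 negative, and the median was -0.17. None passed after adjustment in edgeR or DESeq2, and 1 was higher and 4 lower at an unadjusted p under 0.05, and 0 were without those 2 libraries. Upstream, AI854703, a long noncoding RNA, had a log2 fold change of -2.14 and Zfp775, a zinc finger gene, one of -0.45 (adjusted p = 0.315 and 0.446). Downstream, Tmem176b and Tmem176a, paired membrane protein genes of myeloid cells, had -1.08 and -1.65 (adjusted p = 0.325 and 0.315). All 4 were highest in No MM 3 and No MM 4. Without these libraries their values were -0.42, -0.23, -0.28 and -0.61. Inside the cluster, the antisense gene Gimap1os, named after its values were seen, was 0.848 ± 0.444 CPM in No MM and 1.68 ± 0.287 CPM in MM (log2 fold change 0.98, adjusted p = 0.315, and 0.63 without those libraries). The readthrough gene Gm28053, which shares exons with Gimap7, Gimap1 and Gimap5, had 0 to 4 counts per library and was not tested.

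**Figure D4:**
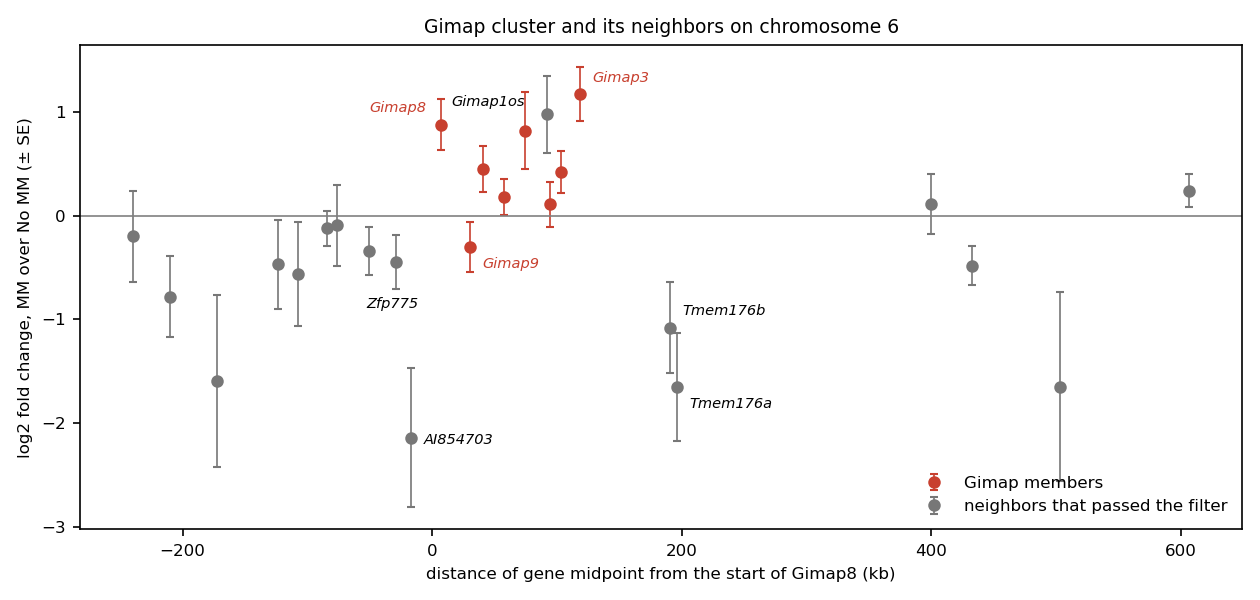
Fitted log2 fold change, MM over No MM, with its SE, for the 8 Gimap genes (red) and the 17 neighbors that passed the filter (gray) against the distance of each gene's midpoint from the start of Gimap8 in kb. Of the Gimap genes, 7 lie above 0, and 14 of the 17 neighbors lie below it, of which 11 do so without No MM 3 and No MM 4.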

How the data were processed

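Osteocyte RNA-seq libraries of 5 MM and 5 No MM mice, grouped by their labels, were used. As deposited, the table gives whole-number counts of reads for 22548 genes, made by the authors without normalization. Per the labels, libraries were made with a stranded total RNA kit and read as paired ends of 76 bases, and the submitters' processing notes name FastQC 0.11.5 and STAR. The counting program, its use of strand and the genome build are not given in the sources used here. The authors also deposited FPKM values, a signal in which counts were scaled by library size factors, and log2 fold changes with p-values of their own comparison, MM over No MM, none of which was used.

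Counts (31099174 to 39466332 per library) were fitted in R 4.3.3 with edgeR 4.0.16, in which filterByExpr kept 16186 genes, TMM set the scale, and glmQLFit with glmQLFTest compared the groups with no covariate and with Benjamini-Hochberg adjustment over all tested genes and a threshold of 0.05. Log2 CPM had a prior count of 2. CPM per kb used the gene length of the table. Limits of detection cover counting error only. Library size was compared by an exact permutation test over 252 assignments. Alternatives were DESeq2 1.42.0, RLE and upper-quartile factors, no filter, 10 counts in every library, immunoglobulin genes left out, a T cell covariate, and each mouse, or No MM 3 and No MM 4, left out. Library totals without a scaling factor were added after the TMM factors were seen.

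The members and lists were chosen with earlier results of these data known. The genes named were the 8 members, T cell and partner list genes, examples of other lists, the nearest 2 expressed neighbors on each side, and the 10 genes of closest pattern. The values of 1 T cell list gene are not reported here. Motifs were searched by exact letters in RefSeq windows.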

Additional observations from a re-analysis of the deposited data

Results flagged for a closer look

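The mean log2 CPM of the neutrophil list in MM 6 was 9.10, while the other 4 MM libraries lay between 10.3 and 10.6. Its gap to the nearest of them was 0.813 of the range of the group, above the critical value of 0.71 for 5 samples. This was 1 of 42 sets of 5 libraries examined in this way, where chance gives 2.10. MM 6 had the highest Gimap3, Gimap6 and Gimap8 levels of all 10 libraries, and no level of a Gimap gene stood apart from its group by this measure.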

How the results depend on the processing

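No paired analysis was possible because no label gives a No MM mouse a partner among the MM mice, and the study's text, which calls its differential analysis paired, names none. The sign of the log2 fold change of Gimap3, Gimap8, Gimap7, Gimap5, Gimap4, Gimap6 and Gimap1 was positive under all 19 alternatives, with ranges of 0.84 to 1.44, 0.71 to 1.18, 0.37 to 1.11, 0.32 to 0.75, 0.15 to 0.76, 0.04 to 0.49 and 0.02 to 0.45. Gimap9 ranged from -0.39 to 0.08 and was at 0.08 both without No MM 3 and No MM 4 and with library totals alone. Library totals alone, an alternative chosen after seeing the data, moved the median of all genes from -0.03 to 0.30 (76.2% of genes positive in place of 47.3%) and that of the 8 members to 0.75. The members' median was 0.26 with the T cell covariate. Of the 3 members whose groups did not overlap, 1 was left with upper-quartile factors and 2 without No MM 3 and No MM 4, without immunoglobulin genes or with 10 counts in every library. In addition, library totals gave 5 members at an unadjusted p under 0.05, where 2577 of the 16186 genes tested were called in either direction. DESeq2 gave 1 member and 5 cell list genes past adjustment. The edgeR count past adjustment was 0 for all genes under every edgeR alternative, and DESeq2 called 207. Unadjusted counts over all genes ranged from 1232 to 3652 when 1 mouse was left out, lowest without No MM 3 and highest without No MM 5.

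Some list medians changed sign. With the T cell covariate, the osteocyte median was -0.26 and the monocyte median -0.12. Without No MM 3 and No MM 4, the osteocyte median was -0.43, the B cell median -0.04 and the neutrophil median -0.34. With library totals alone, the endothelial median was 0.21. With 1 mouse left out, the osteocyte median ranged from -0.18 to 0.51, the neutrophil median from -0.05 to 0.49 and the erythroid median from -0.62 to 0.62, the last without No MM 1. The cause of these changes was not tested. For the 3 partner genes at an unadjusted p under 0.05, leaving out 1 mouse gave 0 to 7, with 0 without No MM 3, No MM 4, MM 7, MM 9 or MM 10 and 7 without No MM 5. The 5 neighbors became 0 without No MM 3 and No MM 4. Gimap7 had the fewest counts, 55 to 370 per library, and is the least precise of the members.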
